A study of Mus musculus with 2 samples.

Results

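The cell cycle genes described here were 38 of the 31053 features in 2 droplet single-cell libraries from mouse brain. They were taken by symbol: 17 genes of DNA synthesis, called S members, and 21 genes from Mki67 on in the list, called G2/M members because most act in G2 or mitosis. All mice were 3-month-old C57BL/6 females, and each library came from cells of 3 mice that were pooled, isolated without enzymes and sorted as microglia, the resident macrophages of the brain. Titles give the groups as WT and IRF8KO. In the genotype field of the IRF8KO library stands WT, and no allele is given, so it is called the library labelled IRF8KO or, for its cells, IRF8KO cells after its title. The same label text also names a SMART-Seq kit, which is not a droplet method, and the values have the form of droplet counts.

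Values came from cells with at least 1000 UMIs (unique molecular identifiers, 1 tag per captured transcript), at least 500 genes and at most 10% of UMIs from mitochondrial genes. They fell into 3 groups. The first held 3304 WT cells. The second held 5007 IRF8KO cells with under 2% of their UMIs in 6 neutrophil genes (Camp, Ngp, S100a8, S100a9, Lcn2 and Ltf), here the remaining IRF8KO cells. The third held the other 98 IRF8KO cells, here the neutrophil-like cells. With 1 library per genotype no value has a replicate, no test of a difference was possible, and cells are not replicates. All intervals below are 95% intervals that cover counting error only.

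The cell cycle copies DNA in S phase and divides it in mitosis, with G1 and G2 as gaps between them. S members include the MCM helicase that opens DNA at replication origins, the sliding clamp Pcna and enzymes that supply nucleotides. G2/M members include the cyclins and the kinase that start mitosis and the motors, checkpoint proteins and kinetochore proteins that move chromosomes. Adult microglia renew themselves at a low rate, whereas neutrophils arise in bone marrow from precursors that divide until the myelocyte stage and then stop.

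The names of the groups were checked against markers that the rule did not use. In the neutrophil-like cells, 7 of 8 genes of early neutrophil precursors had UMIs, among them Chil3 with 9218 and Cebpe with 568, and Mpo had none. The summed level of these 8 genes was 12446 CPM (UMIs per 1000000 UMIs of the group), against 0.108 CPM in WT cells and 2.27 CPM in the remaining IRF8KO cells. For 7 late neutrophil genes, summed CPM was 278 in WT, 356 in remaining IRF8KO and 1006 in neutrophil-like cells. Of these, Mmp8, Mmp9, Retnlg, Cxcr2 and Msrb1 were highest in the neutrophil-like cells. Csf3r had 251, 238 and 91.3 CPM in the same order, and Il1b 3.99, 23.3 and 3.56 CPM. The monocyte marker Ly6c2 had 435 UMIs in the neutrophil-like cells and 0 in both other groups. The other monocyte marker, Ccr2, had 5.55, 15.6 and 8.30 CPM. Summed CPM of 8 microglia markers was 36216 in WT cells, 17853 in the remaining IRF8KO cells and 2392 in the neutrophil-like cells. Sall1, a transcription factor that defines microglia, had 511, 2.85 and 0 CPM in that order. Summed CPM of 5 border macrophage markers, genes of macrophages at the brain's surfaces and vessels, was 11.9, 2623 and 297, so the remaining IRF8KO cells are named by their rule and not as microglia. Irf8 itself had 794 CPM in WT cells and 669 CPM in the remaining IRF8KO cells, a log2 ratio of -0.25 (-0.28 to -0.21). Where the allele lies relative to the counted transcript end is not given, so these UMIs do not check the label.

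Median depth was 3204.5 UMIs per cell in WT, 2933 in the remaining IRF8KO cells and 7057.5 in the neutrophil-like cells, and the groups held 18543061, 18980263 and 842948 UMIs. The 6 neutrophil genes held a median of 44.0% of UMIs in the neutrophil-like cells and at most 0.232% in any remaining IRF8KO cell. Next to the 2% limit, 3 cells lay between 2% and 20%, at 2.36%, 6.82% and 19.5%, and the other 95 were above 20%. These 3 cells had 47753, 31927 and 8689 UMIs, and microglia markers held 1.60%, 1.73% and 0.852% of them. The median of the neutrophil-like cells with 4 or more G2/M members was 0.0183%. Some cells above 20% also had raised shares. Among them, cells at 20.8%, 24.0%, 27.8% and 29.9% had 0.729%, 0.524%, 0.516% and 0.604%, so the 20% limit does not remove all mixed profiles. The 2 libraries shared 5 cell barcodes, and 0 of those cells had 4 or more G2/M members. A doublet caller marked 0 WT and 3 IRF8KO cells (0.0588%), too few to count as a working call, so no cell was removed as a doublet.

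Members share letters in their promoters that the list did not use, and the windows of the members with the most UMIs that hold them are printed to show where these letters stand. RefSeq promoter windows on GRCm38.p6, read from 250 bases before the transcript start to 30 bases after it, were found for 31 of 38 members. Entries for Tpx2, Aurkb, Mcm4, Gins2, Ccna2, Stmn1 and Smc4 were missing. The letters searched, on both strands, were TTTGGCGC, TTTCGCGC and TTTCCCGC (E2F sites, bound by the regulators of entry into S phase), TTTGAA (the cell cycle homology region, CHR, of late cell cycle genes) and CCAAT (bound by NF-Y). The E2F letters TTTGGCGC and TTTCGCGC can overlap each other on opposite strands. Capitals mark the E2F letters in the S members and the CHR or CCAAT letters in the G2/M members, with GCGGGAAA, GCGCGAAA, TTCAAA and ATTGG as their opposite-strand forms. Each sequence runs 5′ to 3′ on the strand of its gene.
Mcm3: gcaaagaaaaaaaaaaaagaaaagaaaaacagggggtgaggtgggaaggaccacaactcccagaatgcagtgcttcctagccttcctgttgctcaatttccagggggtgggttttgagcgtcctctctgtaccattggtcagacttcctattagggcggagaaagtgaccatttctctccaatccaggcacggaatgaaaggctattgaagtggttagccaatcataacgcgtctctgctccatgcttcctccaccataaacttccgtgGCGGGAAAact
Mcm7: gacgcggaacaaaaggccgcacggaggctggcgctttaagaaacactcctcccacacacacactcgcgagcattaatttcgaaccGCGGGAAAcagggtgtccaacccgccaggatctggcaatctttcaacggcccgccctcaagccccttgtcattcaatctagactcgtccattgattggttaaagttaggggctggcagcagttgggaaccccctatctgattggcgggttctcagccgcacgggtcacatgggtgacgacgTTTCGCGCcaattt
Mcm6: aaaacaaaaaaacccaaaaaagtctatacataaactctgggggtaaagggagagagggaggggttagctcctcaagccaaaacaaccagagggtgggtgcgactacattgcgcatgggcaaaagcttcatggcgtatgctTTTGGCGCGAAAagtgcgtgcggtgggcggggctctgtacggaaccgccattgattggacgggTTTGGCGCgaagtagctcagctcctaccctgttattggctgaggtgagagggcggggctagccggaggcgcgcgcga
Tubb5: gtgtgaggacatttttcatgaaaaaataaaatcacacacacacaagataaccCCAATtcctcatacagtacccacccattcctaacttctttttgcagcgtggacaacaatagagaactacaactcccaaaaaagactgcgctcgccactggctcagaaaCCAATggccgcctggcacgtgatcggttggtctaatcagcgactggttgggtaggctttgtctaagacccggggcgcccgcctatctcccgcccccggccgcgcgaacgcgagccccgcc
Hmgb2: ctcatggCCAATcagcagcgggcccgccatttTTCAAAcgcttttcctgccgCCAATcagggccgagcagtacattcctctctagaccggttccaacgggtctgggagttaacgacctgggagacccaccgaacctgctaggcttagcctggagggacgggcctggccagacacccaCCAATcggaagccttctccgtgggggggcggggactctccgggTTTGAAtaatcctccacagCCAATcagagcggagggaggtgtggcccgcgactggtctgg
Mki67: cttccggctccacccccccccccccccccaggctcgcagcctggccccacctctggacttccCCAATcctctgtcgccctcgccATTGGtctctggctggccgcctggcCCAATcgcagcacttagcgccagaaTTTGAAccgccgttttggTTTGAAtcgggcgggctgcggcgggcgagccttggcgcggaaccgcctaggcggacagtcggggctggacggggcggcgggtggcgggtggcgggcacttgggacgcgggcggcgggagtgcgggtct
The windows lie at chr1:20820283-20820562 (Mcm3, - strand), chr5:138171854-138172133 (Mcm7, - strand), chr1:128359676-128359955 (Mcm6, - strand), chr17:35838272-35838551 (Tubb5, - strand), chr8:57511593-57511872 (Hmgb2, + strand) and chr7:135716350-135716629 (Mki67, - strand).

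An E2F match stood in 8 of 17 S windows (47.1%, from 15 genes), in 1 of 16 G2/M windows (that of Cdk1) and in 1.73% of all 32851 windows of the same length. A CHR match stood in 10 of 16 G2/M windows (62.5%), in 1 of 17 S windows (that of Mcm2) and in 17.2% of all windows. CCAAT was common to both lists, with 13 of 17 S windows (76.5%) and 14 of 16 G2/M windows (87.5%), against 36.1% of all windows. Mcm6 held E2F letters that began 110, 106 and 47 bases before its start. Mki67 held CHR letters at 116 and 98 bases before its start, below 3 CCAAT matches, and Hmgb2 had CHR letters at 218 and 30. Tubb5, a tubulin also used outside division, held 2 CCAAT matches and no CHR letters in this window. A match is a description of letters and not a bound site. In GENCODE M21 on GRCm38, the gene Mki67 spans chr7:135689784-135716361 on the - strand, Rrm2 spans chr12:24708241-24714146 on the + strand and Stmn1 spans chr4:134468320-134473843 on the + strand. A further annotated gene overlaps 8 members on the same strand (Mcm7, Rrm1, Top2a, Tpx2, Nusap1, Kif11, Stmn1 and Smc4, mostly with microRNAs, other small RNAs or predicted genes) and 11 on the opposite strand. Whether counting used the strand is not given in the sources used here.

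In the neutrophil-like cells, nearly all G2/M members stood far above their level in the other groups. The 21 G2/M members summed to 347 CPM in WT cells, 349 CPM in the remaining IRF8KO cells and 7201 CPM in the neutrophil-like cells. The neutrophil-like level was 20.6-fold that of the remaining IRF8KO cells, a log2 ratio of 4.37 (4.32 to 4.42). S members summed to 234, 209 and 717 CPM in the same order, so their level in the neutrophil-like cells was 3.43-fold that of the remaining IRF8KO cells (log2 1.78, 1.65 to 1.90). Between the remaining IRF8KO and WT cells the sums lay close together, with log2 ratios of 0.0072 (-0.042 to 0.057) for G2/M members and -0.17 (-0.23 to -0.10) for S members. The second of these moved to 0.088 with TMM scaling, so the sign of that small difference depended on the scaling.

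**Figure D1:**
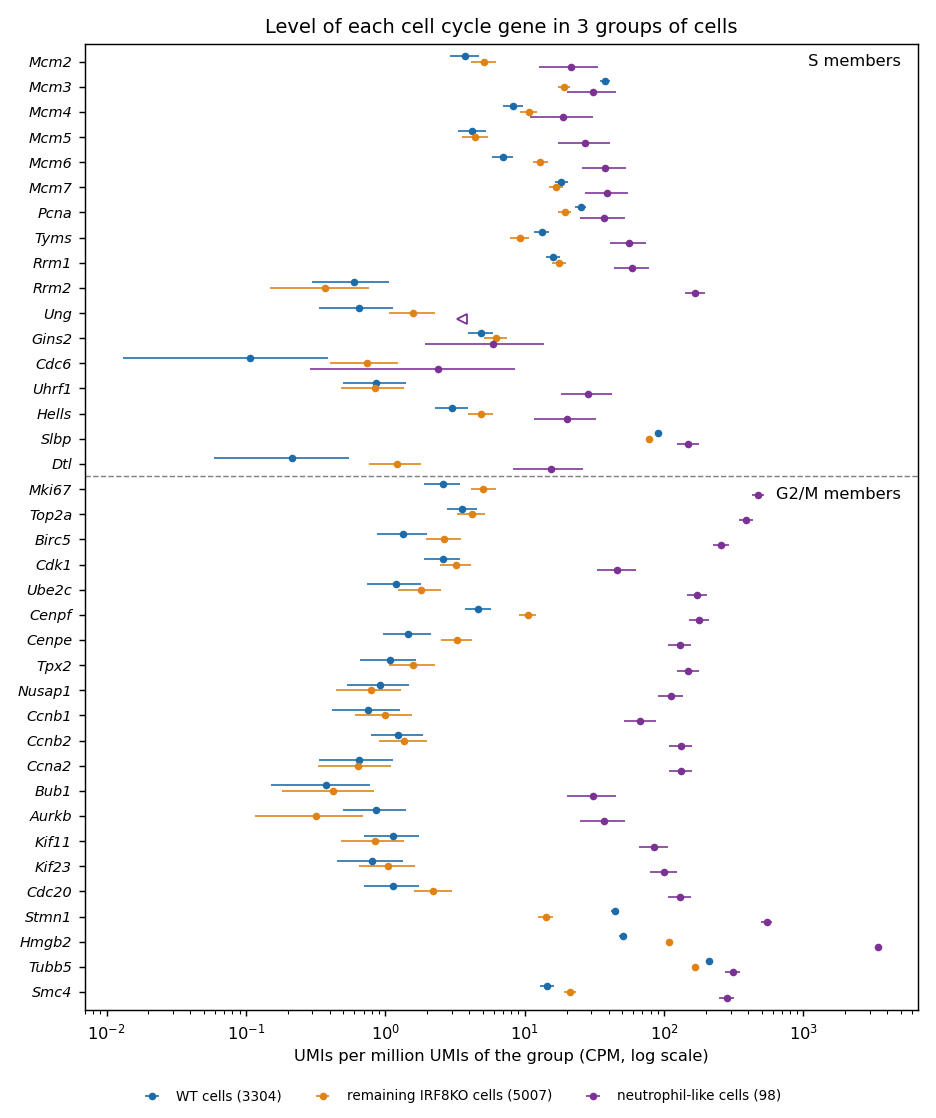
Level of each of the 38 genes, in CPM on a log axis, in the 3304 WT cells, 5007 remaining IRF8KO cells and 98 neutrophil-like cells. Points are the level of 1 pooled group, bars are exact Poisson 95% intervals of counting error, and the open triangle for Ung is the upper limit that 0 UMIs allow (3 counts, 3.56 CPM). The G2/M genes other than Stmn1, Hmgb2, Tubb5 and Smc4 lie between 0.316 and 10.5 CPM in the other groups and between 30.8 and 473 CPM in the neutrophil-like cells, while most S genes are separated less.

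Members were set beside all genes with at least 10 CPM in a group of the comparison, and called where the log2 ratio was at least 1 in size. For neutrophil-like over remaining IRF8KO cells, 30 of the 35 members that reached 10 CPM were higher and 0 were lower, against 11.4% and 44.9% of 8798 genes. The median over these 35 members was 5.08, where that of all genes was -0.85. Of the 35, 23 reached 10 CPM only in the neutrophil-like cells and so had to stand higher there. Of the 12 that reached it in both groups, 7 were higher (Mcm6, Mcm7, Rrm1, Cenpf, Stmn1, Hmgb2 and Smc4) and 5 lay within 2-fold (Mcm3, Mcm4, Pcna, Slbp and Tubb5). The 6 neutrophil genes of the split held 39.0% of UMIs in the neutrophil-like cells, which lowers the CPM of every other gene there. With totals that leave out these 6 genes, a choice made after the data were seen, the median of all genes was -0.093 and that of the members 5.79, with 20.95% of genes higher and 24.1% lower.

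Among genes of proliferation and of mitotic chromosome structure, Mki67, a marker of cycling cells that coats mitotic chromosomes, had 48 UMIs in WT cells, 96 in the remaining IRF8KO cells and 399 in the neutrophil-like cells. These counts are 2.59, 5.06 and 473 CPM, and the neutrophil-like level was highest, at a log2 ratio of 6.55 (6.22 to 6.89) over the remaining IRF8KO cells. Top2a, the topoisomerase that untangles replicated DNA, had 3.56, 4.16 and 387 CPM. Smc4, a condensin subunit, had 14.5, 21.02 and 281 CPM. Birc5, or survivin, a subunit of the chromosomal passenger complex, had 1.35, 2.63 and 256 CPM, and Aurkb, the kinase of that complex, had 0.863, 0.316 and 36.8 CPM. For each of these genes the intervals of the neutrophil-like cells lay above those of both other groups.

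The regulators of mitotic entry and exit were also highest in the neutrophil-like cells. Ccna2, the cyclin of S phase and G2, had 12, 12 and 111 UMIs, or 0.647, 0.632 and 132 CPM, which gave it the highest G2/M log2 ratio, 7.70 (6.84 to 8.70). The mitotic cyclins Ccnb1 and Ccnb2 had 67.6 and 132 CPM in the neutrophil-like cells against 1.001 and 1.37 CPM in the remaining IRF8KO cells. Cdk1, the kinase these cyclins activate, was separated least of the 17 genes without a broad level, with 2.59, 3.21 and 46.3 CPM and a log2 ratio of 3.85 (3.23 to 4.45). Cdc20 and Ube2c, which drive the destruction of mitotic proteins, had 129 and 173 CPM in the neutrophil-like cells and 2.21 and 1.79 CPM in the remaining IRF8KO cells.

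Spindle and kinetochore genes followed. Cenpf, a kinetochore protein, had 4.64, 10.5 and 179 CPM, and Cenpe, a kinetochore motor, had 1.46, 3.27 and 130 CPM. The spindle factors Tpx2 and Nusap1 stood at 149 and 113 CPM in the neutrophil-like cells, and the motors Kif11 and Kif23 at 84.2 and 99.7 CPM. In WT and remaining IRF8KO cells each of these 4 genes was between 0.790 and 1.58 CPM. Bub1, a checkpoint kinase, had 7, 8 and 26 UMIs, or 0.378, 0.421 and 30.8 CPM.

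Stmn1, Hmgb2, Tubb5 and Smc4 are used outside mitosis as well and held most G2/M UMIs in WT and remaining IRF8KO cells, 321 of 347 CPM and 308 of 349 CPM. Hmgb2, a DNA-bending chromatin protein that late cell cycle genes include, had 51.0, 108 and 3445 CPM and at least 1 UMI in 98 of 98 neutrophil-like cells. Stmn1, which destabilises microtubules, had 44.4, 14.2 and 546 CPM and was lowest in the remaining IRF8KO cells. Tubb5, a beta tubulin, differed least, at 211, 165 and 310 CPM. Reads of Tubb5, Hmgb2 and Stmn1 can be shared with near-identical copies, and how counting treated such reads is not given in the sources used here. Together, the 17 other G2/M genes summed to 26.3, 40.8 and 2619 CPM, 64.2-fold higher in the neutrophil-like than in the remaining IRF8KO cells (log2 6.00, 5.88 to 6.12).

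S members were separated less, and unevenly. The 6 MCM helicase subunits had 16 to 33 UMIs each in the neutrophil-like cells, between 19.0 and 39.1 CPM. Their log2 ratios over the remaining IRF8KO cells ran from 0.69 for Mcm3 and 0.83 for Mcm4 to 2.06 for Mcm2 and 2.62 for Mcm5. Pcna had 25.2, 19.4 and 36.8 CPM, a log2 ratio of 0.92 (0.35 to 1.45). Rrm2, the subunit of ribonucleotide reductase that is made in S phase, had 11, 7 and 141 UMIs, or 0.593, 0.369 and 167 CPM. Its log2 ratio of 8.83 (7.74 to 10.17) was the highest of all 35 members that reached 10 CPM, and its partner subunit Rrm1 had 15.9, 17.6 and 59.3 CPM, a log2 ratio of 1.75.

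Tyms, which makes thymidylate, had 13.3, 9.22 and 55.8 CPM, and Uhrf1, which helps copy DNA methylation at the fork, had 0.863, 0.843 and 28.5 CPM. Hells, a chromatin remodeller, had 3.02, 4.85 and 20.2 CPM, and Dtl, which marks licensing factors for destruction, had 0.216, 1.21 and 15.4 CPM. Slbp, which binds histone mRNA, had 90.3, 77.7 and 149 CPM. Ung, Gins2 and Cdc6 did not reach 10 CPM in any group. Ung, a uracil glycosylase, had 12, 30 and 0 UMIs, and 0 of 842948 UMIs allows up to 3.56 CPM. Gins2, a part of the replicative helicase, had 90, 118 and 5 UMIs, and Cdc6, a loader of MCM, had 2, 14 and 2.

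Between the remaining IRF8KO cells and WT cells, 13 of 38 members reached 10 CPM, 2 were called higher and 1 lower, against 5.61% and 9.28% of 8859 genes. The 2 higher genes were Cenpf, with 86 and 199 UMIs (log2 1.18, 0.80 to 1.56), and Hmgb2, with 945 and 2043 UMIs (log2 1.08, 0.97 to 1.19). The lower gene was Stmn1, with 824 and 269 UMIs (log2 -1.65, -1.85 to -1.45). Cenpf passed the minimum only in the remaining IRF8KO cells. Mcm3 lay just inside 2-fold, with 699 and 364 UMIs (log2 -0.97), and Mcm6 had 129 and 246 UMIs (log2 0.90). Of the 25 under the minimum, Cdc6, Dtl, Ung and Cenpe were past 2-fold higher (log2 2.77, 2.49, 1.29 and 1.17) and Aurkb lower (log2 -1.45). Each of these had 62 UMIs or fewer in either group. With no minimum, 8.42% of all genes were higher and 12.8% lower. Mki67, also under the minimum, had 48 and 96 UMIs (log2 0.97, 0.45 to 1.5). The 17 G2/M genes other than Stmn1, Hmgb2, Tubb5 and Smc4 summed to 488 and 775 UMIs, a log2 ratio of 0.63 (0.47 to 0.80). The median of the 13 was -0.13, where that of all 8859 genes was -0.28. This comparison and that of the neutrophil-like cells share the remaining IRF8KO cells. Hmgb2 and Stmn1 had log2 ratios of 1.08 and -1.65 here and of 5.0 and 5.27 there.

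Other genes of the cycle, on 4 lists, were read the same way. Of 21 replication genes, 16 reached 10 CPM in the comparison of neutrophil-like with remaining IRF8KO cells, and 14 were higher and 0 lower, where 11.4% and 44.9% of all genes were. Of the 16, 10 reached 10 CPM only in the neutrophil-like cells and had to stand higher there, and of the 6 that reached it in both groups 4 were higher. Pclaf, a partner of Pcna, had 57 and 267 UMIs (log2 6.72), Cdc45, a helicase subunit, had 5 and 16 (log2 6.17), and Mcm10 had 1 and 13 (log2 8.19, 5.46 to 13.6). Of 21 further mitosis genes, 20 reached the minimum, 19 were higher and 1, Pttg1 or securin, was lower (log2 -1.61). Of the 20, 17 reached the minimum only in the neutrophil-like cells, and Cenpa, Cks2 and Pttg1 reached it in both groups. Cdca3, Plk1 and Knl1 led with log2 ratios of 6.76, 6.46 and 6.25. Plk1 is a kinase of mitosis and Knl1 a kinetochore scaffold.

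Regulators of the step from G1 to S went both ways in that comparison, with 7 higher and 5 lower of 14, and 3 of the 7 reached 10 CPM only in the neutrophil-like cells. Of all genes 11.4% were higher and 44.9% lower, so the lower share, 5 of 14, was no larger than that of all genes. The higher genes included cyclin E2 (Ccne2, log2 4.0), the transcription factor E2f2 (log2 3.99) and cyclin D3 (Ccnd3, 367.8 against 160 CPM, log2 1.20). The lower genes were Ccnd1 (22.5 against 231 CPM, log2 -3.36), Ccnd2 (24.9 against 225 CPM, log2 -3.17), Cdk4 (log2 -1.51), Rbl2 (log2 -1.10) and Myc, with 446 UMIs in the remaining IRF8KO cells and 0 in the neutrophil-like cells. At the floor of 3 counts over the group, Myc was lower by a log2 ratio of at least 2.72. Myc reached 10 CPM only in the remaining IRF8KO cells and so had to stand lower in the neutrophil-like cells. Of 9 inhibitors and brakes that reached the minimum, Cdkn2d and Gadd45a were higher (log2 3.47 and 2.45). Cdkn1c, Trp53 and Btg2 were lower (log2 -1.58, -1.34 and -1.33), again no larger a share than the 44.9% of all genes. Gadd45a reached 10 CPM only in the neutrophil-like cells and Cdkn1c only in the remaining IRF8KO cells, so the minimum fixed their directions.

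Between remaining IRF8KO and WT cells the same lists were read beside all genes, of which 5.61% were higher and 9.28% lower. Of 6 replication genes that reached 10 CPM, 1 was higher, Pola1 (log2 1.27), and Dut and Fen1 had log2 ratios of 0.76 and 0.15. Of 3 mitosis genes, 1 was higher, Cenpa, the centromere histone (log2 1.26), and Cks2 and Pttg1 had log2 ratios of -0.37 and -0.0089. Pola1 and Cenpa reached the minimum only in the remaining IRF8KO cells. Of 11 G1/S regulators, 2 were higher and 1 lower. Ccnd2, a D cyclin, had 8 UMIs in WT cells and 4263 in the remaining IRF8KO cells, or 0.431 and 225 CPM (log2 9.02), Ccnd3 had 78.95 and 160 CPM (log2 1.02), and Cdk6, a kinase that D cyclins activate, had 115 and 38.9 CPM (log2 -1.57). Ccnd2 also reached the minimum only in the remaining IRF8KO cells and so had to stand higher there. Ccnd1 had 202 and 231 CPM and differed by less than 2-fold. Of 8 inhibitors, 0 were higher and 1 was lower, Cdkn1c (log2 -1.11), and the median was -0.51. The antiproliferative genes Btg1 and Btg2 had log2 ratios of -0.96 and -0.67. The border macrophage markers moved with these groups as given above, and their part in the Ccnd2 and Cdk6 values was not tested.

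Cells with UMIs of 4 or more G2/M members were counted next. They made up 83 of 3304 WT cells (2.51%, exact binomial 2.01 to 3.1%), 44 of 5007 remaining IRF8KO cells (0.879%, 0.639 to 1.18%) and 65 of 98 neutrophil-like cells (66.3%, 56.1 to 75.6%), or 64 of 95 without the 3 cells between 2% and 20%. No G2/M member was detected in 1164 WT cells and 2042 remaining IRF8KO cells, and in 0 of 98 neutrophil-like cells (upper limit 3.06%). Of the 98 neutrophil-like cells, 53 had 12 or more of the 21 members and 33 had 1 to 3. In those 33 cells, the 4 broadly used genes named above held 260 of 265 G2/M UMIs and the 17 others held 5.

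**Figure D2:**
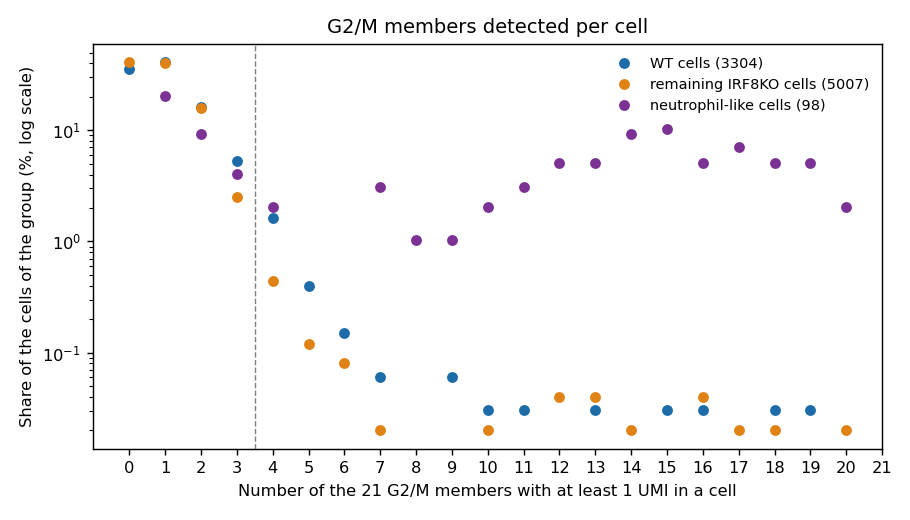
Number of the 21 G2/M members with at least 1 UMI in a cell (x axis) and share of the cells of each group with that number (y axis, percent, log scale, numbers with no cell not drawn). The dashed line separates fewer than 4 from 4 or more. The WT and remaining IRF8KO cells fall steeply and then run out in a thin tail, while the neutrophil-like cells lie in 2 sets, at 1 to 4 members and at 7 to 20.

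Depth moved with these counts in all 3 groups. The median cell with 4 or more members had 26885 UMIs in WT and 7771.5 in the remaining IRF8KO cells, against group medians of 3204.5 and 2933. Of WT cells with 10000 or more UMIs, 70 of 338 (20.7%) had 4 or more members, and of those from 2000 to below 4000 UMIs, 5 of 1935 did. In the remaining IRF8KO cells the counts were 19 of 187 (10.2%) and 6 of 3353. Neutrophil-like cells had 4 of 11 from 2000 to below 4000 UMIs, 36 of 59 from 4000 to below 10000 and 25 of 27 at 10000 or more. With each cell thinned to 2000 UMIs, leaving out 285, 498 and 1 shallower cells, the counts became 11 of 3019 WT cells (0.364%, 0.182 to 0.651%), 13 of 4509 remaining IRF8KO cells (0.288%, 0.154 to 0.493%) and 58 of 97 neutrophil-like cells (59.8%, 49.3 to 69.6%). The WT share was thus above the other without thinning, and at equal depth the intervals overlapped.

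**Figure D3:**
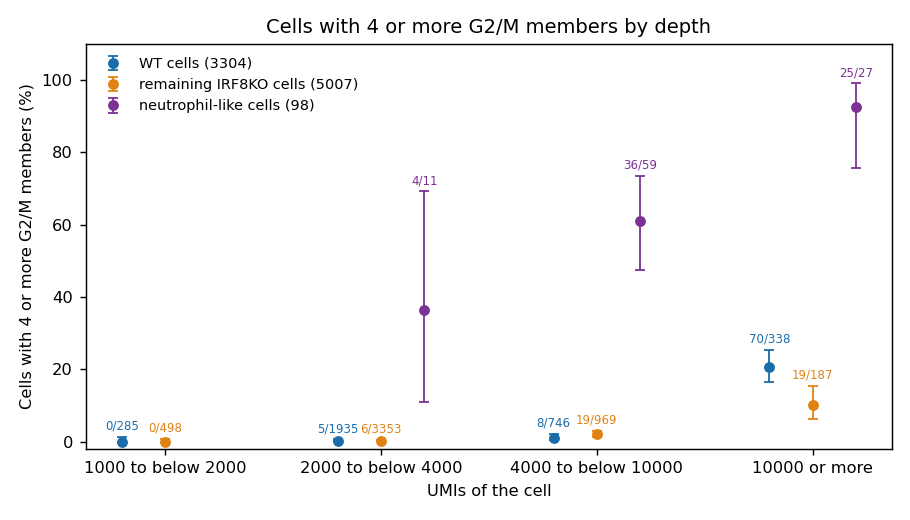
Share of cells with 4 or more G2/M members (y axis, percent) by the UMIs of the cell (x axis, 4 ranges) in the 3 groups. Bars are exact binomial 95% intervals and numbers are cells over all cells of that range; the 1 neutrophil-like cell under 2000 UMIs is not drawn. At every depth shown from 2000 UMIs the neutrophil-like cells stand above the other groups, from 4 of 11 cells to 25 of 27.

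The 4 broadly used genes carried most of these cells in WT. Without Stmn1, Hmgb2, Tubb5 and Smc4, 4 or more of the 17 other members were found in 10 WT cells, 12 remaining IRF8KO cells and 63 neutrophil-like cells. A count of 8 or more of all 21, chosen after the data were seen, held 9 WT cells (0.272%, 0.125 to 0.516%), 11 remaining IRF8KO cells (0.22%, 0.110 to 0.393%) and 60 neutrophil-like cells (61.2%, 50.8 to 70.9%). Median depth in those WT and remaining IRF8KO cells was 4561 and 4615 UMIs. The other 74 WT cells, with 4 to 7 members, had a median of 30389.5 UMIs.

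The UMIs of the 17 narrowly used G2/M genes sat in few cells. The rule that picks a cell counts these genes, so the shares are a description. In WT, 9 cells with 8 or more members held 55.9% of these UMIs and 0.419% of all UMIs. In the remaining IRF8KO cells, 11 cells held 54.8% of these UMIs and 0.30% of all UMIs. For Mki67, 42 of 48 WT UMIs (87.5%) sat in 7 of those 9 cells, and 74 of 96 UMIs (77.1%) in the 11 remaining IRF8KO cells. Ube2c had 20 of 22 and 29 of 34 UMIs in the same cells.

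The broad G2/M genes and most S genes were spread instead. Of Tubb5 UMIs, 1.40% and 1.02% sat in those WT and remaining IRF8KO cells, and of Hmgb2 UMIs, 5.50% and 5.53%. Stmn1 differed between the libraries, with 84 of 824 WT UMIs (10.2%) and 103 of 269 remaining IRF8KO UMIs (38.3%) in these cells. Outside them, Stmn1 was detected in 16.4% of WT cells and 2.44% of remaining IRF8KO cells. Among S members, Mcm5 had 8 of 78 WT UMIs there, and Mcm2 and Mcm7 had 0 of 69 and 0 of 340. Larger shares sat there for Rrm2, with 8 of 11 UMIs in WT and 3 of 7 in the remaining IRF8KO cells, and for Uhrf1, with 5 of 16 and 3 of 16. Dtl had 1 of 4 in WT and 0 of 23 in the remaining IRF8KO cells.

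**Figure D4:**
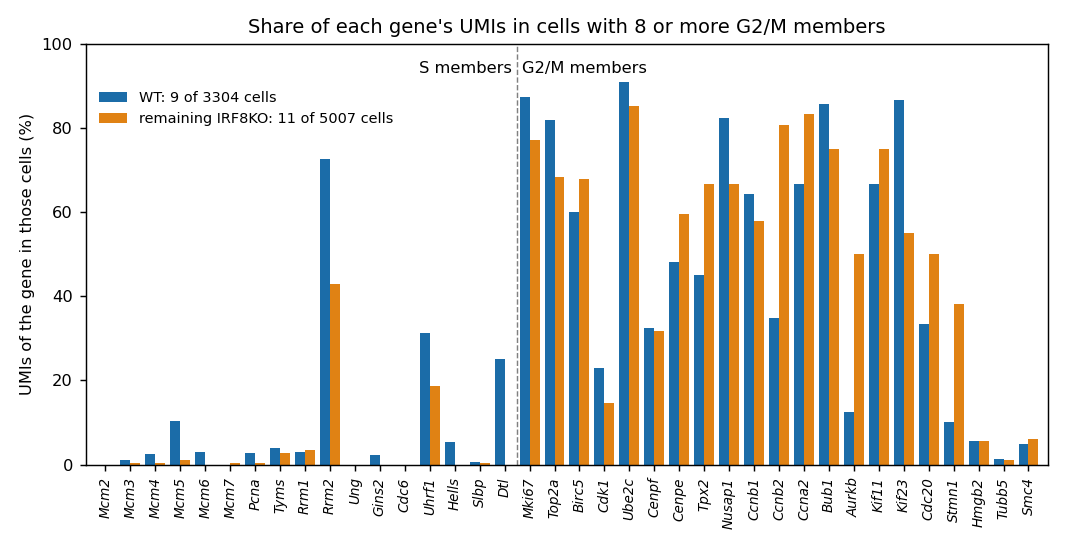
Share of each gene's UMIs (y axis, percent) that sat in cells with 8 or more G2/M members, for 9 of 3304 WT cells and 11 of 5007 remaining IRF8KO cells (bars, 1 value per pooled group, no error drawn). S genes stand left of the dashed line and G2/M genes right of it, whose UMIs helped to pick the cells. Mki67, Ube2c and Kif23 reach 55.0% or more in both groups, while Tubb5, Hmgb2 and the MCM genes stay at 10.3% or less.

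S members were not counted in picking these cells and can be read in them. Summed S level in WT cells with 8 or more G2/M members was 1094 CPM (874 to 1353), against 231 CPM in all other WT cells. In the remaining IRF8KO cells it was 579 CPM (399 to 813) against 208 CPM. G2/M level in the same cells, which G2/M members helped to pick, was 6138 and 12235 CPM. The WT cells held 85 S and 477 G2/M UMIs of 77709, and the IRF8KO cells 33 and 697 of 56970. Depth was uneven, as the deepest WT cells had 16719, 16381 and 20472 UMIs and the deepest IRF8KO cell 10151. Those WT cells held 79, 56 and 41 of the 477 G2/M UMIs, and their part in the lower WT level was not tested. These sums rest on 9 and 11 cells. Of the S UMIs, 1 WT cell held 28 of the 85 and 1 IRF8KO cell held 13 of the 33.

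Marker levels in those cells were set beside cells of the same group with under 4 members. Summed microglia level was 29971 CPM (28766 to 31213) in the 9 WT cells and lower than the 35984 CPM of WT cells with under 4 members. It was 16430 CPM (15394 to 17517) in the 11 remaining IRF8KO cells, also lower than the 17855 CPM beside it. Border macrophage level in the 11 cells was higher, at 3932 CPM (3434 to 4482) against 2601 CPM. Progenitor markers had 167 against 209 CPM in WT and 386 (242 to 585) against 232 CPM in the remaining IRF8KO cells. In the 9 and 11 cells these UMIs were all from 1 of 3 genes, Cd34. Cd34 was detected in 51.0% of all WT cells and 49.8% of all remaining IRF8KO cells, and Kit had 0 UMIs in both groups. The part of these marker differences in the S and G2/M levels was not tested. The 6 neutrophil genes had 0 UMIs in the 9 WT cells and 3 UMIs in the 11 IRF8KO cells, 52.7 CPM against 48.8 CPM in cells with under 4 members. All 8 early neutrophil genes, both monocyte markers and all 6 lymphocyte markers were at 0 in both sets.

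Free RNA in droplets can give UMIs to cells that do not express a gene. Camp, at 51878 CPM in the neutrophil-like cells, had 5.27 CPM in the remaining IRF8KO cells, 0.0102% of that level, and the other 5 neutrophil genes had between 0.0061% and 0.0135%. Mki67, Top2a and Birc5 stood at 1.07%, 1.08% and 1.03% of their neutrophil-like level in the same cells, and Rrm2 at 0.22%. After thinning to 2000 UMIs, Mki67 was found in 47 of 97 neutrophil-like cells (48.5%), against 9 of 3019 WT cells (0.298%) and 20 of 4509 remaining IRF8KO cells (0.444%). Without thinning the shares were 65.3%, 0.393% and 0.619%.

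Within the neutrophil-like group, S genes sat with G2/M genes. The 65 cells with 4 or more G2/M members held 582 of 604 S UMIs (96.4%) and 75.0% of all UMIs. Summed S level was 921 CPM (848 to 999) in these 65 cells and 104 CPM (65.3 to 158) in the other 33, a log2 ratio of 3.14 that was 3.1 with both sets thinned. All 28 cells with 4 or more S members were among the 65, while 20 of the 65 had no S member. All 141 UMIs of Rrm2 lay in 27 of the 65 cells. Pclaf had 267 UMIs in 49 of the 65 cells and 0 in the 33. Median depth was 8766 UMIs in the 65 cells and 5356 in the 33.

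The 65 cells and the 33 cells also differed in genes of neutrophil maturation, which neither the split nor the count used. Elane, a protease of the first granules, had 131 UMIs in 8 of 65 cells and 1 UMI in the 33 (log2 5.45, 2.95 to 10.8), and 1 of the 65 cells held 46 of the 131. Prtn3, a protease of the same granules, had 118 and 2 UMIs (log2 4.30, 2.42 to 7.36), and Ms4a3, a gene of granulocyte precursors, had 116 and 10 UMIs (log2 1.95, 1.02 to 3.05). Fcnb and Chil3 had log2 ratios of 1.14 and 0.77, and Cebpe, a regulator of later granule genes, had 690 and 625 CPM (log2 0.14, -0.14 to 0.43). Mpo was at 0 in both sets. With cells thinned to 2000 UMIs, Elane had 24 UMIs in the 65 cells and Prtn3 20, with 0 in the 33 for both. At the floor of 3 counts over the group these are log2 ratios of at least 1.98 and 1.71, and Ms4a3 had 22 and 4 UMIs (log2 1.44).

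Late neutrophil genes lay the other way. Mmp8, a collagenase of late granules, had 6 UMIs in 5 of the 65 cells and 40 UMIs in 7 of the 33 (log2 -4.32, -5.85 to -3.07). Mmp9 had 55 and 98 UMIs in 18 and 22 cells (log2 -2.41, -2.92 to -1.92). Retnlg had 37 and 41 UMIs in 22 and 11 cells (log2 -1.73, -2.41 to -1.05). Cxcr2, Csf3r and Msrb1 had log2 ratios from -0.69 to -0.27, with intervals that reached above 0. Thinned, Csf3r had 2 and 7 UMIs (log2 -2.83), and without the 3 cells between 2% and 20% Msrb1 was at -0.38 (-0.68 to -0.064), below 0. Il1b had 1 and 2 UMIs. Camp and Ltf, genes of the split itself, had log2 ratios of 0.55 and -0.49. Summed early genes had a log2 ratio of 0.79 (0.76 thinned) and summed late genes -1.07 (-1.75 thinned). Single genes weigh on these sums. Chil3 held 7709 of 8795 early UMIs in the 65 cells and 1509 of 1696 in the 33. Msrb1 held 329 of 498 late UMIs in the 65 cells and 133 of 350 in the 33. Pooled microglia markers were lower in the 65 cells, at 1858 against 3988 CPM. They were at 702 against 1267 CPM without the 3 cells between 2% and 20%. The median share per cell went the other way, at 0.0183% in the 65 and 0.0160% in the 33. Among the cells above 20% with fewer than 4 G2/M members, 1 with 20308 UMIs had 0.729% of them in these markers. The pooled direction thus rested on few cells. Without the 3 cells between 2% and 20%, 64 and 31 cells remained. The log2 ratio was then 5.26 for Elane, 4.11 for Prtn3, -4.51 for Mmp8, -2.61 for Mmp9 and 3.30 for summed S members. The D cyclin Ccnd3, with 366 and 374 CPM, and the inhibitor Cdkn2d, with 173 and 109 CPM, were detected in both sets.

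**Figure D5:**
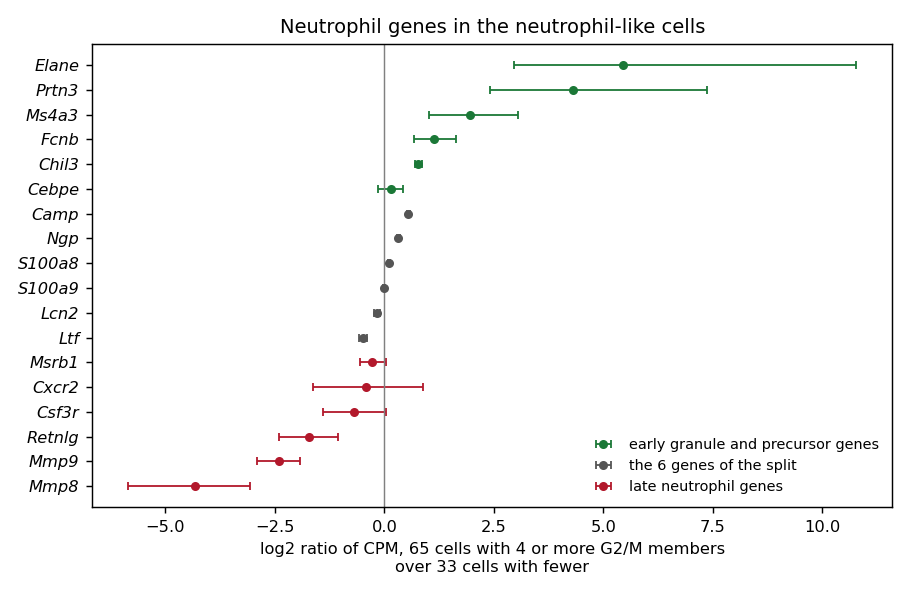
log2 ratio of CPM (x axis) between 65 neutrophil-like cells with 4 or more G2/M members and 33 with fewer, for 6 early genes, the 6 genes of the split and 6 late genes. Points are ratios of pooled cells of 1 library and bars are exact 95% intervals of counting error; genes with no UMI or too few in a set are not drawn. Early genes stand at or right of 0, up to 5.45 for Elane, and late genes left of it, down to -4.32 for Mmp8.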

How the data were processed

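The values deposited by the authors are raw UMI counts for every gene in every cell barcode, whole numbers with no normalisation. The file headers name software version 3.1.0 and format version 2. The submitters' processing notes name bcl2fastq, Cell Ranger 3.1, Scanpy and mm10, and sources used here give no settings for cell calling or counting. The smallest barcodes held 500 and 501 UMIs, so barcodes had been selected before deposit. The WT library had 3504 barcodes and 18706147 UMIs, and the library labelled IRF8KO had 5303 and 19998075.

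Cells with at least 1000 UMIs, 500 genes and at most 10% mitochondrial UMIs were kept, 3304 of WT and 5105 of IRF8KO. Of the barcodes left out, 0 of 200 WT and 1 of 198 IRF8KO had 4 or more G2/M members, and 0 of 200 allows up to 1.5%. UMIs were summed over each group of cells and scaled to CPM by the group's total. A UMI counts 1 molecule and was not scaled by gene length. With 1 library per group no test or p-value was computed. Intervals at the 95% level are exact Poisson for levels, exact conditional binomial for ratios and Clopper-Pearson for shares, and a count of 0 was set to a floor of 3 counts over the group. Genes entered a comparison at 10 CPM in a group and were called at a log2 ratio of at least 1 in size. Thinning drew 2000 UMIs per cell (seed 1). Beside the 7 late neutrophil markers that were summed, 1 further marker is not reported here. The ratio and thinning steps were tested on simulated data. Doublet scores came from scrublet in scanpy 1.11.5, TMM factors from edgeR 4.0.16 in R 4.3.3, and other values from python 3.11.15, numpy 2.4.6 and scipy 1.17.1. Gene IDs of all 38 members matched GENCODE M21 (31011 of 31053 features), and promoters came from RefSeq.

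All members are named. Of each list of further cell cycle genes, the 3 with the largest log2 ratio in size in each comparison are named, plus any needed to state a count of 5 or fewer. The members, lists and limits were chosen with earlier results of these data known. The 20% limit, the count of 8 or more, the totals without the 6 neutrophil genes and the combination of thinning with the 17 genes were added after the values were seen.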

Additional observations from a re-analysis of the deposited data

How the results depend on the processing

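No paired analysis was possible because each group was 1 library with no replicate number, and for the same reason no replicate could be left out. No direction of a called value was reversed under any alternative run. For neutrophil-like over remaining IRF8KO cells, the number of members called higher stayed within 1.5 times of 30 in every alternative run, and the count of 65 cells with 4 or more G2/M members did as well. The S log2 ratio there (1.78) was 2.45 with TMM scaling, 1.59 with mitochondrial and ribosomal protein genes left out of the totals, 1.55 with equal weight for each cell and 2.49 with totals without the 6 neutrophil genes. The G2/M log2 ratio (4.37) was 6.00 without Stmn1, Hmgb2, Tubb5 and Smc4, 4.50 without the 3 cells between 2% and 20%, and 5.04, 4.18 and 5.08 under the TMM, mitochondrial and ribosomal, and neutrophil gene totals. The member median (5.08) was 6.31 at a minimum of 50 CPM, 4.49 with a pseudocount of 1 CPM, 5.75 with TMM and 5.79 without the 6 neutrophil genes. The Mki67 share of neutrophil-like cells was 48.5% thinned and 65.3% without thinning.

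For remaining IRF8KO over WT cells, the S log2 ratio (-0.17) was 0.088 with TMM and -0.016 with the totals that leave out mitochondrial and ribosomal protein genes. The G2/M log2 ratio (0.0072) was 0.63 without the 4 broad genes, 0.26 with TMM and 0.16 with those totals. TMM moved the median of all genes from -0.28 to -0.018, about the size of these shifts, and the member median (-0.13) to 0.13. With no minimum CPM the member median was 0.33, where that of all genes was -0.23. Then 6 of 38 members were called higher and 2 lower, against 8.42% and 12.8% of all genes. At 50 CPM 1 of 3 members was higher and 0 lower, against 5.69% and 9.84% of genes. At a log2 limit of 2 there were 0 and 0 of 13, against 2.61% and 2.89%. With equal weight for each cell there were 1 and 2 of 12, against 5.56% and 8.85%. Without high doublet scores 2 of 13 were lower, against 9.29%. The sign of 10 uncalled members changed in some setting, among them Mcm7, Slbp and Kif11, and that of Gins2 in the other comparison. WT cells with 4 or more G2/M members (83) numbered 257 at 3 or more, 29 at 5 or more, 9 at 8 or more, 10 without the 4 broad genes, 11 thinned, and 6 thinned without the broad genes. Remaining IRF8KO cells (44) numbered 169, 22, 11, 12, 13 and 12 in that order. Depth limits these cell counts, as the thinned values show.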
